A study of Mus musculus with 2 samples.

Results

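The Eph receptors Epha3, Epha4, Epha7, Ephb2 and Ephb3 and the ephrins Efna2, Efna5, Efnb1 and Efnb2 were followed in RNA-seq of E12.5 mouse distal forelimbs. They were picked by name as a set of family members considered around digit condensation, with earlier results of these data known. These 9 genes are listed with 30 of the 64053 transcripts of the table, which sum to 23157 genes. There was 1 library of wild-type tissue and 1 library of tissue carrying the HoxD Inv(TpSB1-Itga6) allele, an inversion of 2.4 Mb on chromosome 2, and the study's methods give the inversion embryos as homozygous. Both pools had the strain label C57Bl6CBAF1, came from E12.5, and the series text gives the dissected material as 3 pairs of forelimbs. The wild-type sample is titled wtFL and the other invDFL, while the tissue label of both is distal limb and the table names its columns wtDFL and invDFL. If the wild-type pool had held more than distal tissue, that difference and the genotype could not be told apart in any ratio below. None of the 9 genes lies on chromosome 2. As each genotype had 1 library, no difference below has a replicate check, and the 95% intervals cover counting error only.

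Eph receptors are receptor tyrosine kinases, and their ligands, the ephrins, are also held at the cell surface, so that signals pass between touching cells and can run both ways. EphA receptors mostly bind the ephrin-A proteins, which are anchored by a lipid tail, and EphB receptors mostly bind the ephrin-B proteins, which span the membrane, while EphA4 binds both kinds. In the limb bud these proteins are known for sorting and boundary formation among mesenchymal cells, for guiding motor axons and for arranging arteries and veins. Epha7 has been described as a target of the digit Hox proteins HOXA13 and HOXD13.

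The wild-type library held 9280660 reads and the inversion library 9466154. The unit below is the normalized read, the authors' reads divided by a size factor per library, and a log2 ratio is that of inversion over wild type, so that values above 0 are higher in the inversion library. A pseudocount of 1 was added to each value first, and genes had to reach a mean of 10 normalized reads, which 16756 genes and all 9 members did. The libraries also differed in markers of embryo sex, with 2607 reads of Xist in wild type and 13 in the inversion. The 4 Y-linked genes measured rose together from 826 to 2820 reads. All 7 limb mesenchyme markers were detected in both libraries, and their summed normalized reads were 11584 (wild type) and 11152 (inversion), with 1 marker above 0 and 6 below on the log2 scale. The 5 markers of the proximal limb, none at 0 reads, summed to 1372 reads (wild type) and 1547 (inversion). Of these, 4 had log2 ratios below 0 and 1 above, the median was -0.29, and the exact test described below called 1 in each direction, beside 12.3% (higher) and 7.87% (lower) of all genes. The part of such tissue in the results was not tested. In RNA of dissected limb tissue, fewer cells of a type and less RNA per cell cannot be told apart.

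The Epha7 transcripts with the largest change in share among those of the members, a pattern noticed after the values were seen, differ in their coding sequence by 12 bases. These are chr4:28947528-28947539 on the plus strand of GRCm38, the first 12 bases of exon 10 of 17 in Epha7-201, and Epha7-203 joins the preceding exon to the base after them. The stretches below, read from the GENCODE M21 transcripts, show 30 bases on either side of this place with the 12 bases in capitals. They begin within codon 600 of the coding sequence and keep its reading frame.
Epha7-201: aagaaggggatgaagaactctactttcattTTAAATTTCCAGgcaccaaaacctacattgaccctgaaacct
Epha7-203: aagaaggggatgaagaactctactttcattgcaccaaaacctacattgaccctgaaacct
Epha7-201 has 998 codons and Epha7-203 has 994.

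A second coding difference, shown because the transcript without it was the lowest of its gene, is exon 4 of Efna5, 81 bases at chr17:62613316-62613396 on the minus strand. It is present in Efna5-201 and skipped in Efna5-202, which leaves 201 of 228 codons. The exon is in capitals between 30 bases on either side.
Efna5-201: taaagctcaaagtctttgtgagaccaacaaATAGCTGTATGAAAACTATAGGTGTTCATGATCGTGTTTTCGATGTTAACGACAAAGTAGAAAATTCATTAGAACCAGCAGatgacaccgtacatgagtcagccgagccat
Efna5-202: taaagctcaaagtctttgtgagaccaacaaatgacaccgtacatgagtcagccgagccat

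At the level of genes, the log2 ratios of the 9 members lay between -0.25 and 0.16. None of the 9 members differed by 2-fold or more, a threshold passed by 3.99% of all genes in the higher and 0.483% in the lower direction. The member furthest from 0 was Ephb2 with a log2 ratio of -0.25 and the nearest was Efna5 with -0.03. The median over the 9 members was -0.08, against -0.02 over all genes that passed the filter, and 6 members were below 0 and 3 above. Summed over the 9 genes, 13095 reads were counted in wild type and 12865 in the inversion. An exact two-sided binomial test of the reads, which compares these 2 libraries and not the genotypes, called 1 member higher and 3 lower at the 0.05 level after Benjamini-Hochberg adjustment over all genes tested. The calls of Ephb2, Epha7 (both lower) and Efnb1 (higher) held with the libraries scaled by total reads or by the upper quartile, whereas those of Efnb2, Epha3 and Efna2 depended on the scaling. The test called 12.3% of all genes higher and 7.87% lower. Among the 6148 genes with a mean of 500 to 3000 normalized reads, the range that holds the 9 members, these shares were 12.2% and 14.4%.

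**Figure D1:**
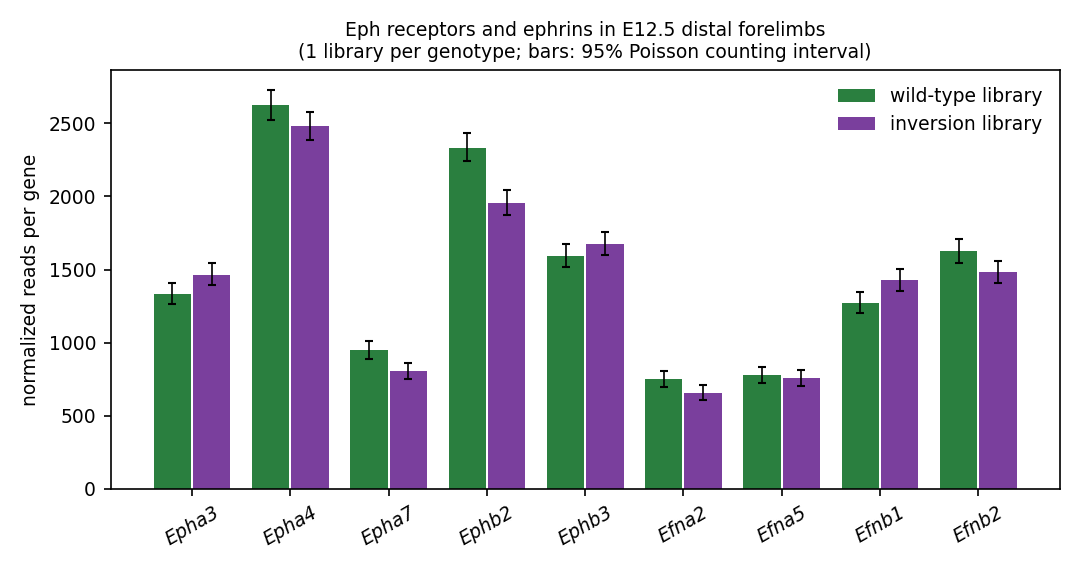
Normalized reads per gene (vertical axis) of the 9 genes in the wild-type library (green) and the inversion library (purple), with exact 95% Poisson intervals for counting error as error bars. Epha4 and Ephb2 have the tallest bars in both libraries, and Ephb2, which went from 2334 to 1956, is the gene with the widest gap.

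Among the EphA receptors, Epha4 (chr1:77367185-77515088) had the most reads. It is a receptor for ephrins of both classes and is known from motor axon guidance in the limb. Its 2625 normalized reads in wild type compare with 2482 in the inversion, and the log2 ratio was -0.08 (95% interval -0.16 to -0.0010). By the exact test it was not called (adjusted p = 0.158). Nearly all its reads were assigned to Epha4-201, 96.4% of them in wild type and 98.2% in the inversion. The only other Epha4 transcript, whose identifier was not matched in GENCODE M21, had 94 and 46 reads (log2 ratio -1.05, 95% interval -1.61 to -0.54).

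Epha3 (chr16:63543534-63864175), a receptor for ephrin-A5 that is known in mesenchyme and muscle precursors, had a value slightly above 0. The normalized reads were 1335 for wild type and 1466 for the inversion, and the log2 ratio of 0.13 (95% interval 0.03 to 0.24) was not called by the exact test (adjusted p = 0.0644), but was with scaling by total reads (adjusted p = 0.0470 by the exact test). It is listed with 1 transcript. The 9 muscle markers, summed over the list, went in the same direction, from 1172 to 2372 reads, with 8 of them above 0 and none at 0 reads, and their part in the value of Epha3 was not tested.

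Epha7 (chr4:28813131-28967499) was lower in the inversion library. Its normalized reads were 949.8 in wild type and 805 in the inversion (log2 ratio -0.24, 95% interval -0.38 to -0.10, adjusted p = 0.00484 by the exact test). Beside it, Hoxd13 had 2292 and 1503 normalized reads (log2 ratio -0.61) and Hoxa13 had 1098 and 1193 (log2 ratio 0.12). How these values relate to that of Epha7 was not tested.

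Of the EphB receptors, Ephb2 was lower and Ephb3 was not called. Ephb2 (chr4:136647539-136835988), a receptor for ephrin-B ligands, fell from 2334 normalized reads to 1956 (log2 ratio -0.25, 95% interval -0.34 to -0.17, adjusted p = 2.11e-07 by the exact test). Its 6 transcripts were all below 0, from -0.33 to -0.20. Ephb2-202, with 986 codons, had a log2 ratio of -0.27, and Ephb2-201 and Ephb2-203, with 987 codons each, had -0.20 and -0.22. None of the 6 shares of its reads moved by more than 0.994 percentage points.

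Ephb3 (chr16:21204755-21223305), a related receptor for the ephrin-B proteins, was at 1594 normalized reads in the wild-type and 1677 in the inversion library. Its log2 ratio of 0.07 (95% interval -0.03 to 0.17) was not called by the exact test (adjusted p = 0.351). Its 5 transcripts ranged from 0.03 to 0.20, and 2 of them are annotated as retained introns.

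The ephrin-A ligands both had values below 0 and neither was called with the authors' scaling. Efna2 (chr10:80179482-80190010), a ligand of EphA receptors listed with 1 transcript, was measured at 749 and 656 normalized reads for wild type and inversion (log2 ratio -0.19, 95% interval -0.35 to -0.04, adjusted p = 0.0609 by the exact test). With scaling by the upper quartile it was called (adjusted p = 0.0444 by the exact test). Efna5 (chr17:62604184-62881317), a ligand of EphA receptors known from axon guidance, had 777 and 758 normalized reads (log2 ratio -0.03, 95% interval -0.18 to 0.11, adjusted p = 0.846 by the exact test). Efna5-202, the transcript without exon 4 shown above, was assigned 41 and 27 reads, a log2 ratio with an interval that includes 0 (-0.62, 95% interval -1.40 to 0.10). Its share of the Efna5 reads was 5.35% (95% interval 3.86 to 7.18) and 3.52% (2.33 to 5.07) in wild type and inversion, and these intervals overlap.

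The ephrin-B ligands had log2 ratios of opposite sign. Efnb1 (chrX:99136130-99148991), an X-linked ligand whose loss is known to disturb skeletal patterning, was higher in the inversion library, with 1272 and 1425 normalized reads (log2 ratio 0.16, 95% interval 0.05 to 0.27, adjusted p = 0.0201 by the exact test). It lies on the chromosome whose inactivation Xist governs, and Xist differed between the pools as given above. Over the 839 X-linked genes past the filter, Xist aside, the median was -0.05, and embryo sex and genotype cannot be told apart here. Efnb2 (chr8:8617434-8661242), known as a marker of arteries and also made by limb mesenchyme, was lower, with 1625 and 1480.4 normalized reads (log2 ratio -0.13, 95% interval -0.24 to -0.03, adjusted p = 0.0486 by the exact test). This call was lost with scaling by total reads (adjusted p = 0.0673 by the exact test). The 6 endothelial markers, all with reads in both libraries, summed to 4266 and 4081 reads in wild type and inversion, each with a log2 ratio below 0. Their part in the value of Efnb2 was not tested. Ephb4, the receptor known to mark veins, had a log2 ratio of -0.08.

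Levels can be set side by side between genes once they are divided by transcript length, for which the length of the protein-coding transcript with the most reads among those matched in GENCODE M21 was used. In wild type the highest levels were those of Epha4, with 415 normalized reads per kilobase, Efnb1 with 390.4 and Ephb3 with 381, followed by Efna2 (352) and Efnb2 (339). The counting intervals of neighbours overlap along these 5. After a step came Epha3 (236), with a lower bound of 223.1, just above the upper bound of 223.0 for Ephb2 (214). Efna5 (193) overlapped with Ephb2, and Epha7 was lowest with 141, apart from Efna5. In the inversion library the leading 3 genes were the same and Efnb1 led with 437, while Epha7 remained lowest with 119. The place of Ephb2 rests on the length taken, since Ephb2-202 has 10902 bases and Ephb2-201 has 4804, with which its level becomes 486 in wild type. The places of Ephb3, Efnb2 and Efna5 rest on it too, since an unmatched transcript of unknown length held 29.99%, 31.84% and 31.55% of their wild-type reads. For Ephb3, Ephb3-202 and Ephb3-203, annotated as retained introns, held a further 24.1% and 7.3%. Ephb3-201, whose length was taken, held 29.0%, so that the level of Ephb3 is not one of coding transcripts alone.

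The reads assigned to the transcripts of Epha7 differed between the libraries in a way that the sum of the gene hides. Epha7-203, the form without the 12 bases, was the leading transcript of wild type with 433 reads, and 219 were assigned to it in the inversion (log2 ratio -1.02, 95% interval -1.26 to -0.78). Epha7-201, the form with the 12 bases, went the other way, from 287 to 416 reads (log2 ratio 0.50, 95% interval 0.28 to 0.72). Together these full-length forms had 720 and 635 reads, a log2 ratio of -0.22. The share of Epha7-201 in the reads of the gene was 30.6% (95% interval 27.7 to 33.7) in wild type and 51.0% (47.6 to 54.5) in the inversion. That of Epha7-203 was 46.2% (42.9 to 49.4) and 26.9% (23.9 to 30.1). By the reads as assigned, the order of these transcripts was reversed between the libraries. The intervals do not overlap, but they cover counting error only and leave out error in assigning reads that fit both forms. They treat each assigned read as a separate count, although these forms share 6615 bases, so they are too narrow by an unknown amount.

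**Figure D2:**
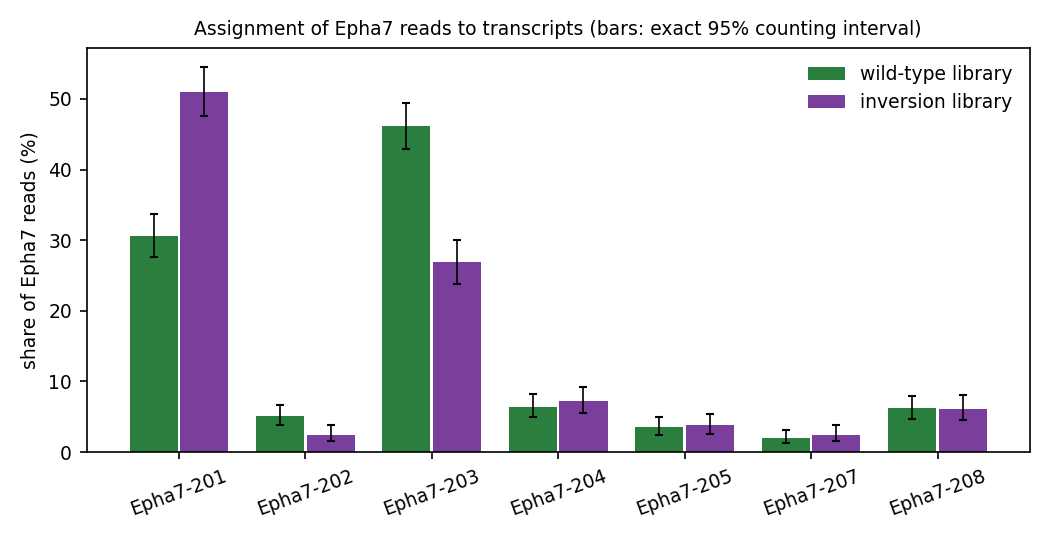
Share of the Epha7 reads (percent, vertical axis) assigned to each of its 7 listed transcripts in the wild-type library (green) and the inversion library (purple), with exact 95% intervals for counting error. Epha7-201 and Epha7-203 exchange places, from 30.6% and 46.2% in wild type to 51.0% and 26.9% in the inversion, and each other transcript holds less than 10% in both libraries.

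The shorter forms of Epha7 had few reads. Epha7-202 has 610 codons and Epha7-204 has 626, and truncated EphA7 proteins without a kinase domain are known. Epha7-202 was assigned 48 reads in the wild-type and 20 in the inversion library (log2 ratio -1.26, 95% interval -2.13 to -0.52), and 829 of its bases are in none of the other listed transcripts. Epha7-204 had 60 and 59 reads. The 3 non-coding transcripts together had 110 and 101 reads.

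How firmly the reads tell Epha7-201 and Epha7-203 apart is limited by their structure. They share 6615 bases, the whole of Epha7-203, and Epha7-201 adds the 12 bases of exon 10 and 119 bases at its start. Epha7-203 has 0 bases of its own in these gene models, and only reads that cross the junction shown above can set it apart from Epha7-201. How reads that fit both were assigned is not given in the sources used here. The gene models are those of GENCODE M21 and may differ from the ones the authors used.

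The same measure was taken for all genes. Over 8579 genes with 2 or more transcripts and a mean of at least 100, the largest change of a transcript share within a gene had a median of 2.72 percentage points, and it was at least 10 points in 10.1% of them. The value for Epha7 was 20.4 points, exceeded by 2.38% of these genes. Of the 7 members with 2 or more transcripts, Epha7 was the only one past 10 points, and the values of the others lay between 0.274 (Efnb2) and 1.83 (Efna5). The threshold of 10 points was chosen after these values were seen. Counted singly, 3 of the 30 member transcripts were at least 2-fold lower and 0 at least 2-fold higher, against 2.19% and 6.66% of all transcripts with a mean of at least 10. The 3 were Epha7-202, Epha7-203 and the second transcript of Epha4.

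**Figure D3:**
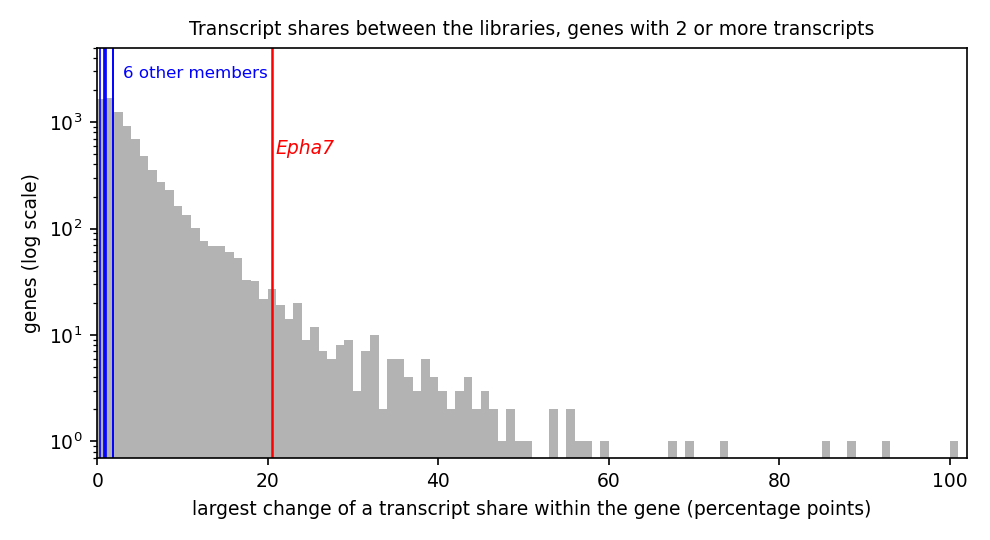
Largest change of a transcript's share of its gene's reads between the libraries, in percentage points (horizontal axis), for 8579 genes, with the number of genes on a log scale. The red line marks Epha7 at 20.4 points, and the blue lines mark the 6 other members with 2 or more transcripts, none past 1.83.

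The remaining Eph receptors and ephrins, 13 genes, were measured in the same libraries, and 10 of them passed the filter. None was at least 2-fold changed, their median log2 ratio was 0.02, and the exact test called 1 of the 10 higher and 0 lower, beside 12.3% and 7.87% of all genes. The called gene was Epha5, a receptor of ephrin-A ligands known from the nervous system, which rose from 135 to 197 reads (log2 ratio 0.51, 95% interval 0.19 to 0.84). Ephb1 had 78 and 104 reads (0.37) and Ephb6, a receptor without kinase activity, 608 and 712 (0.19). Epha2 (0.13), Efna3 (0.04), Efnb3 (-0.01), Epha1 (-0.04), Efna1 (-0.06), Ephb4 (-0.08) and Efna4 (-0.09) had smaller log2 ratios. Epha6, Epha8 and Epha10 had 3 reads or fewer in each library, so that no change in them was detectable at this depth. The 5 neuron markers had 321 and 389 reads in all, with 3 of them past the filter, 1 above 0 and 2 below, and their part in its value was not tested.

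**Figure D4:**
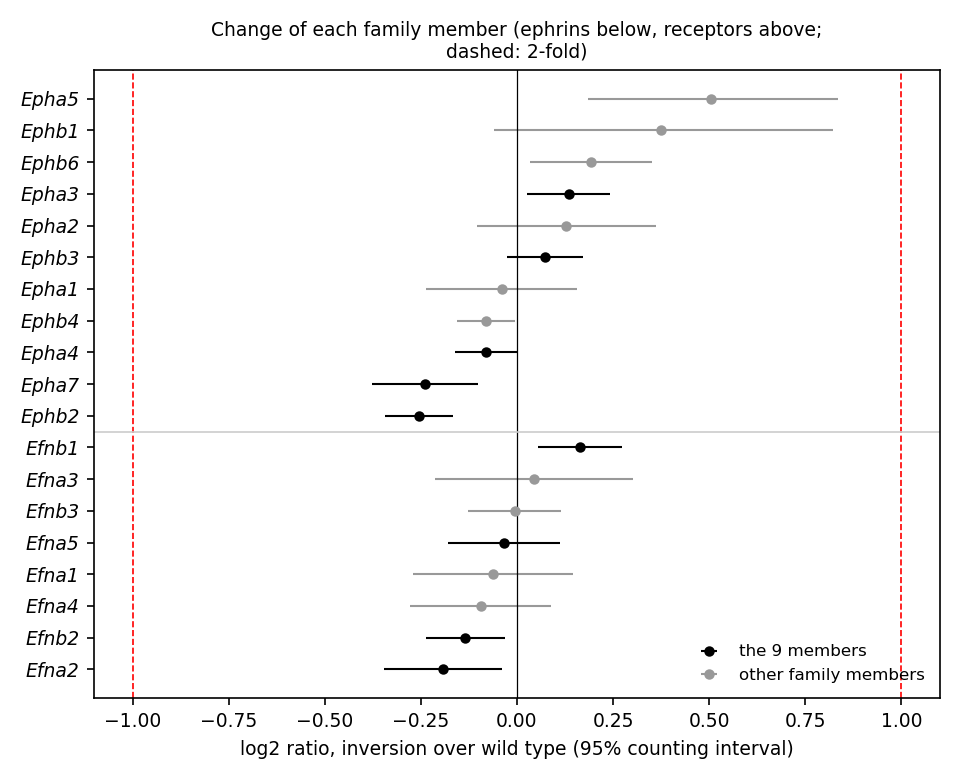
Log2 ratio of inversion over wild type (horizontal axis) with its 95% counting interval for the 9 members (black) and the other family genes that passed the filter (grey), with ephrins in the lower and receptors in the upper block. All points lie inside the dashed lines at 2-fold, and the members span -0.25 (Ephb2) to 0.16 (Efnb1).

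Proteins that carry Eph and ephrin signals were followed with a list of 27 genes, of which 26 passed the filter. Their median log2 ratio was -0.05, none was at least 2-fold changed, and the exact test called 1 of the 26 higher and 4 lower, beside 12.3% and 7.87% of all genes and 12.2% and 14.4% of those with a mean of 500 to 3000. Of the adaptors and kinases of the receptors, Inppl1 (0.09) and Nck1 (0.07) were highest and Abl2 (-0.13) and Ptpn1 (-0.12) lowest. Of the regulators of small GTPases, Vav2 (0.11) and Rasa1 (0.05) were highest and Tiam1 (-0.15) and Vav3 (-0.11) lowest. Among proteins that bind the tail of the ephrin-B ligands, Pick1 rose from 489 to 716 reads (log2 ratio 0.51), Grip1 was at 0.13, Rgs3 was at -0.13, and Sdcbp, which encodes syntenin, fell from 1299 to 1130 reads (-0.24). Adam10, a protease that cuts ephrins, was at -0.06.

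A list of 17 genes around the condensations held 8 condensation and cartilage genes with log2 ratios from -0.36 to 0.87, 7 adhesion genes from -0.05 to 0.51, and the digit Hox genes Hoxd13 and Hoxa13 given above. The 9 members ranged from -0.25 to 0.16. All 17 genes were past the filter, their median was 0.03, and the exact test called 5 higher and 5 lower, beside 12.3% and 7.87% of all genes. Of the genes with a mean of 500 to 3000, the range of most of the 17, the exact test called 12.2% higher and 14.4% lower. Acan, the core protein of the main cartilage proteoglycan, had 440 and 828 reads (log2 ratio 0.87), and Cd44, a hyaluronan receptor, had 169 and 248 (0.51). At the other end were Hoxd13 (-0.61) and Gdf5, a ligand of the joint regions, with 809 and 644 reads (-0.36). The summed reads of the 6 cartilage markers went from 12958 to 16016, with 4 of them above 0 and 2 below, and those of the 6 surface ectoderm markers from 5019 to 4436, all below 0. The 6 red cell markers went from 27329 to 24040 reads, all below 0, the 3 tendon markers from 1076 to 1294, all above 0, and the 5 Schwann cell markers from 1025 to 1111, with 4 above 0. The part of these cells in the values of the Eph and ephrin genes was not tested.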

How the data were processed

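Stranded poly(A) libraries of E12.5 distal forelimbs, 1 per genotype, were sequenced by the authors with single-end reads of 100 bases, which were mapped to NCBIM37 (mm9) and assigned to transcripts with HTSstation. The submitters' processing notes list Bowtie2. The deposited signal per transcript is the number of reads divided by a size factor of each library, with 0.5 written for no reads, which was read as 0. Of the values above it, 100% were whole reads in both libraries, within a tolerance of 0.1 read. The authors' columns of fold changes and p-values were not used, and 0 per-sample columns were left unmapped. Genes are sums of transcripts that share symbol and chromosome. Intervals of ratios and shares are exact Clopper-Pearson intervals. The exact binomial test, an alternative added after seeing the data like its repeats under other scalings, called 3386 of 16756 genes. Positions, lengths and sequences are those of GENCODE M21 on GRCm38. This is not the build of the mapping, so transcripts were joined by identifier (88.1% matched) and no coordinate was converted. The members and gene lists were chosen with earlier results of these data known. Named were the 9 members, each other family gene past the filter, and the 2 highest and the 2 lowest log2 ratios of each group of signalling partners and of the condensation genes, plus Hoxa13 and Hoxd13 beside Epha7. Epha6, Epha8 and Epha10 are named outside this rule, to account for the family genes under the filter. Cell type markers are given as sums, except Xist. A gene of the signalling partners that this rule names is counted in its list but not reported here. The log2 ratios of genes and their intervals were tested on simulated libraries with Poisson counts. Transcript shares, the assignment of reads, the exact test and variation between libraries were not part of that simulation. Alternatives were other scalings, pseudocounts, filters and thresholds, and the leading transcript in place of the sum. Tables were computed in Python 3.11.15 with pandas 2.3.3 and numpy 2.4.6, tests with scipy 1.17.1, and plots with matplotlib 3.10.9.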

Additional observations from a re-analysis of the deposited data

How the results depend on the processing

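No paired analysis was possible because each genotype had 1 library. Of 54 values for single members under an alternative, 53 stayed within their counting interval. The exception was Epha7, whose log2 ratio of -0.24 became 0.50 when the transcript with the highest mean, Epha7-201, stood for the gene, and the median of the 5 receptors then became 0.050 instead of -0.08. By its construction that setting leaves out Epha7-203. Many of the 53 could hardly have left their interval, so that this count says little. Pseudocounts move genes of this depth little, and a rescaling shifts all members by nearly the same small amount. Epha3 and Efna2 are listed with 1 transcript, so that a choice of transcripts leaves them unchanged. The median of the 9 members lay between -0.09 and -0.02 under the alternatives run for it, and no member passed a threshold of 1.5-fold. By the exact test, added after seeing the data, scaling by total reads ended the call of Efnb2 and made one of Epha3, and scaling by the upper quartile made one of Efna2. The median of the other 13 family genes was near 0 and was -0.0051 without the filter.

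The counts over all genes depended on filter and threshold. With no filter 1992 were at least 2-fold higher and 1089 lower, with a mean of at least 100 the numbers were 139 and 12, at 1.5-fold 1577 and 341, and at 4-fold 113 and 13. Keeping only transcripts that GENCODE M21 lists as protein-coding, chosen after seeing the data, also drops the unmatched ones and left 412 genes higher and 110 lower, against 668 and 81 over all transcripts. Depth limits Epha6, Epha8 and Epha10, and the assignment of shared reads limits the transcripts of Epha7 and Efna5.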
